A study of Mus musculus with 19 samples.

Results

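Myoepithelial and basal genes of the mammary gland were followed in total RNA-seq libraries of mouse mammary tissue. The genes were taken by symbol from the table of counts and are 10 of 24421. They are Acta2, Actg2, Myh11, Mylk, Cnn1 and Tagln of the contractile apparatus, the oxytocin receptor gene Oxtr, and Krt5, Krt14 and Trp63, which mark the basal cell layer. All 10 were present in each of the 19 libraries and all 10 passed the filter on low counts in both models.

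The libraries are labelled C57BL/6, and the study's methods name C57BL/6N for mutant and normal mice. There were 3 wild-type (WT) libraries from pregnancy day 6 (p6) and 3 from pregnancy day 18 (p18). Mice with the label Enhancer-delS1-4, which lack the enhancer cluster S1-4 of the casein locus, a super-enhancer and hence called ΔSE, contributed 4 libraries per stage. Then there were 3 libraries with the label delCsn1s2b-E (ΔCsn1s2bE, an enhancer of the casein gene Csn1s2b deleted) and 2 the label delCsn3-PE (ΔCsn3PE, read here as the proximal enhancer of the casein gene Csn3 deleted). These 5 are labelled p18, but their extraction notes name WT tissue in lactation, so that their stage is uncertain. The study's methods state that its targeted mice were made with CRISPR/Cas9 in fertilized eggs and that mutants used were homozygous. They describe no deletion at Csn3 and do not say which deletion delCsn1s2b-E is. The methods give a single age range, that of young adults, for all mice. The number of founder lines behind each group was not found in the sources used here. The study calls its replicates independent, the labels only number them, and if libraries shared an animal the p-values would measure technical spread.

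The mammary epithelium has an inner layer of luminal cells, which make milk in the alveoli, and an outer layer of basal cells, most of which are myoepithelial. Myoepithelial cells hold smooth muscle actin and myosin. When oxytocin from the pituitary binds its receptor on them, calcium rises in the cell, myosin light chain kinase phosphorylates the light chain of myosin, and the cell contracts and presses milk into the ducts. The transcription factor p63, encoded by Trp63, and the keratin pair K5 and K14 mark the basal layer in the mammary gland as in skin. Pericytes and the smooth muscle cells of blood vessels also express most of the contractile genes, and the tissue powders sequenced here held all of these cells.

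Reads in genes ranged from 12335272 to 20525175 in the 14 WT and ΔSE libraries and from 26848053 to 30329601 in the single-enhancer libraries. The precursor of ribosomal RNA, Rn45s, took 21.7 to 42.9% of them in the first set and 0.0765 to 0.924% in the second. Members were well covered, the lowest count being 25 reads (Actg2 in WT p6 replicate 1) and the lowest count over all other members 127 reads (Cnn1 in the same library). WT p6 replicate 1 stood apart from the other p6 libraries, with the lowest normalized CPM (counts scaled to library size with TMM factors) of 8 members among all libraries at p6. Its summed level of 10 fibroblast and myofibroblast markers was 1281 normalized CPM, against 4870 and 11799 in the other WT p6 libraries. Skeletal muscle RNA differed between libraries as well. The summed level of 16 skeletal muscle genes was 2154 to 3553 normalized CPM at p6 in WT and 21.7, 1492 and 2250 at p18, and in ΔSE it was 102, 4645, 224 and 5180 at p6 and 22.8 to 37.2 at p18.

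The starts of Acta2, Cnn1 and Krt5 are shown because Acta2 and Cnn1 rose between p6 and p18 whereas Krt5 fell. Each is the RefSeq sequence of GRCm38.p6 from 250 bases before to 50 bases after the start of transcription, 5′ to 3′ on the strand of the gene. RefSeq promoters were matched for 6 of 10 members, the other matched members being Mylk, Oxtr and Krt14, and not for Actg2, Myh11, Tagln or Trp63. Acta2 (chr19:34255324-34255623, minus strand), Cnn1 (chr9:22099003-22099302, plus strand) and Krt5 (chr15:101712856-101713155, minus strand) read as follows, with capitals for sites that differ at 1 base from a CArG box, the palindromic site bound by serum response factor.
Acta2: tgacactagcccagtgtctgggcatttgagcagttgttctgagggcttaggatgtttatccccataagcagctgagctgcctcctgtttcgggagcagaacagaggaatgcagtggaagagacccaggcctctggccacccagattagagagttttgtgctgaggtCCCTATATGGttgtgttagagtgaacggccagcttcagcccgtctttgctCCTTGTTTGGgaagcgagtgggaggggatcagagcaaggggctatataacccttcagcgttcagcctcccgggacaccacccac
Cnn1: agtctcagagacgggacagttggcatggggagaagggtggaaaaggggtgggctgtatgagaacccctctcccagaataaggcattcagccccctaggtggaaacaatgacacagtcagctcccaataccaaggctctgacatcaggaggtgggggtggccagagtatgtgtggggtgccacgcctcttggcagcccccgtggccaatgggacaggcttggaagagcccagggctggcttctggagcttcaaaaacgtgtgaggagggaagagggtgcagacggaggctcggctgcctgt
Krt5: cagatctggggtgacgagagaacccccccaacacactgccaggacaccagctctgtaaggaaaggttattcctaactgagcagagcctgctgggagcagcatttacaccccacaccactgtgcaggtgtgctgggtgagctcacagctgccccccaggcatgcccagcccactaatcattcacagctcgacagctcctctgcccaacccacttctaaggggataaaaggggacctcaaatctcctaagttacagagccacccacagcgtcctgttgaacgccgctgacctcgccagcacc

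An exact CArG box stood in 0 of the 6 windows matched to members and in 1.63% of 32851 RefSeq promoters of the same length. Sites with at most 1 base different stood in 21.1% of all promoters and, among the 6 members, in Acta2 alone. Acta2 held 2 of them, beginning at positions -84 and -34 relative to the start, and 3.7% of all promoters held at least 2. These are matches of letters in short windows and say nothing on binding. The windows of Krt14 (100205981 to 100206280) and Mylk (34784700 to 34784999) lay inside the genes as annotated by GENCODE, away from their outer starts. For Acta2, GENCODE put the outer start at 34255590, upstream of the start used. Its positions therefore hold for the RefSeq start only.

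On GRCm38 the contractile genes lay on chromosome 19 (Acta2, 34241090 to 34255590), chromosome 6 (Actg2, 83512905 to 83536265), chromosome 16 (Myh11, 14194535 to 14291372, and Mylk, 34745210 to 35002420) and chromosome 9 (Cnn1, 22099216 to 22109630, and Tagln, 45929619 to 45936058). Oxtr lay on chromosome 6 (112473683 to 112489943), Krt5 on chromosome 15 (101707070 to 101712898), Krt14 on chromosome 11 (100203162 to 100207548) and Trp63 on chromosome 16 (25683763 to 25892102). Some counts can hold reads of other genes. Of all 50-base stretches of the annotated transcripts, 58.3% were shared with another gene for Tagln, 13.9% for Krt14 (with Krt16 and Krt17), 12.2% for Krt5 (with Krt6a and others) and 4.56% for Mylk, and at most 0.34% for the other 6 members. The stretches of Tagln are shared with Gm48529, an antisense gene over 55.0% of its exon bases, and with Pcsk7. The strand setting of the counting is not given in the sources used here, so that Tagln is uncertain to that extent.

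**Figure D1:**
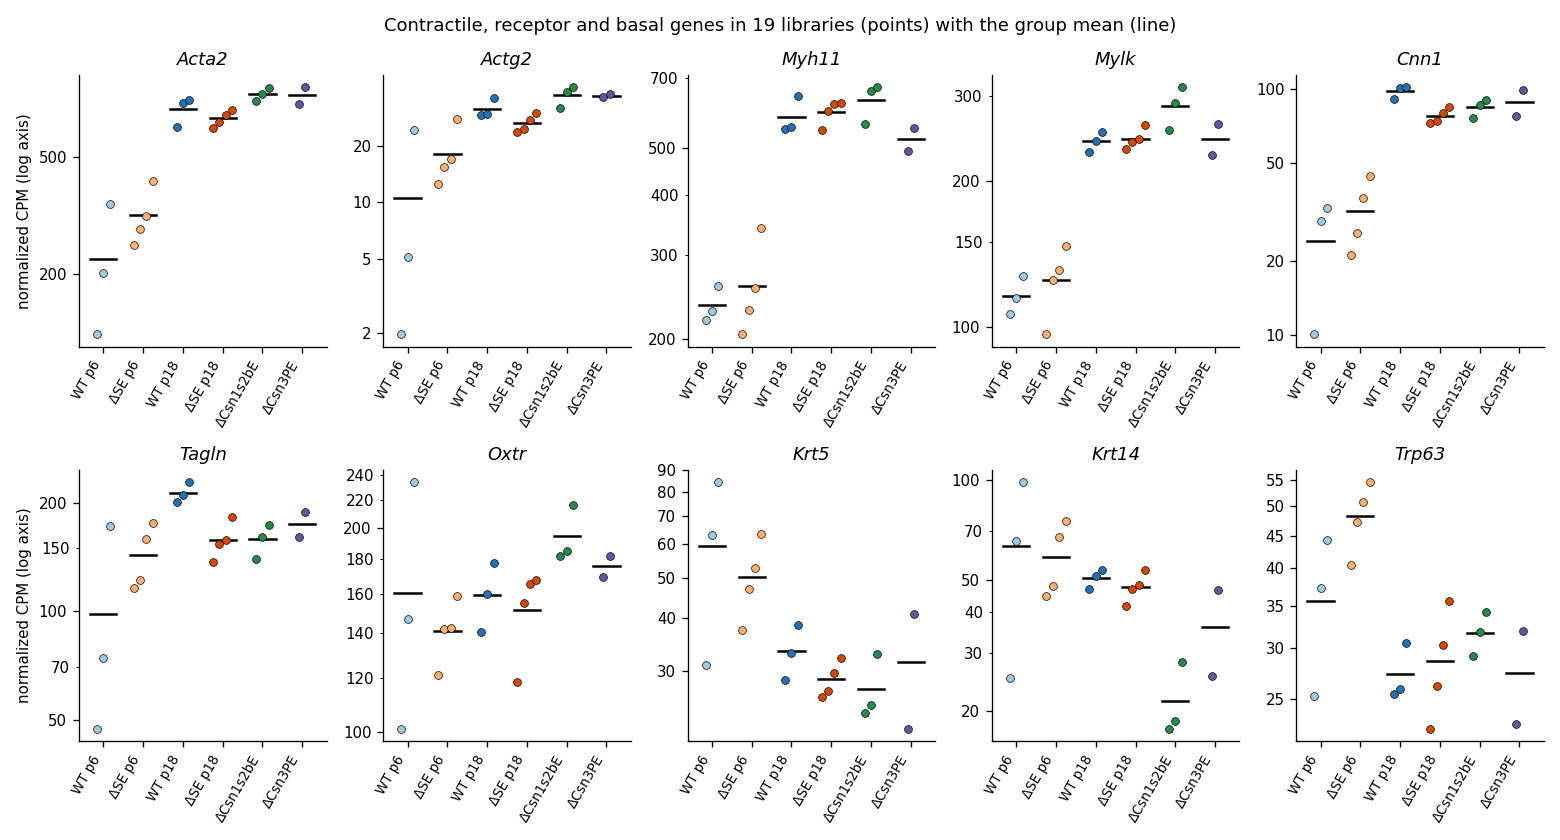
Normalized CPM (log axis, a scale of its own in each panel) of the 10 genes in each of the 19 libraries, by group on the x axis. Points are libraries, drawn in order of their value, and lines are group means. Acta2, Myh11, Mylk and Cnn1 lie higher in all p18 libraries than in all p6 libraries, Oxtr has no such separation, and Krt14 is lowest in ΔCsn1s2bE.

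Per kilobase of exon, Acta2 was the most abundant member in every group. In WT at p6 its mean was 109.8 normalized CPM per kb, followed by Tagln with 61.5, Krt14 with 37.2, Myh11 with 35.6, Oxtr with 33.5, Krt5 with 27.1, Mylk with 14.3, Cnn1 with 9.51, Actg2 with 7.68 and Trp63 with 4.25. In WT at p18 the order was Acta2 with 358.8, Tagln with 133.9, Myh11 with 88.1, Cnn1 with 38.8, Oxtr with 33.3, Mylk with 29.9, Krt14 with 29.8, Actg2 with 23.1, Krt5 with 15.2 and Trp63 with 3.26. Myh11, Cnn1, Mylk and Actg2 thus stood higher in this order at p18, and Krt14 and Krt5 lower.

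The first question was how these genes change as the WT gland passes from early to late pregnancy. All 6 contractile genes rose from p6 to p18, Oxtr did not pass the test, and of the basal genes Krt5 fell whereas Krt14 and Trp63 did not pass it. Calls are genes with an adjusted p under 0.05 in edgeR's quasi-likelihood test. Of all 17844 genes tested, 17.2% rose and 12.4% fell in this comparison, and of the 10 members 6 rose and 1 fell. The median log2 fold change was 1.11 over the members and -0.05 over all genes. With scaling by library totals and no TMM factors, the median over all genes shifted to -0.42 and the calls over all genes split into 763 higher and 3663 lower, where 3068 and 2211 were found with TMM. Acta2, Myh11, Mylk and Cnn1 were still called higher and Krt5 lower under that scaling. With Rn45s left out of the totals the median was -0.46, the split 1051 higher and 5271 lower, and 4 members were called higher and 2 lower.

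Acta2, the smooth muscle actin that makes most of the thin filaments of these cells, was at 124, 346 and 201 normalized CPM in the WT libraries at p6 and at 636, 769 and 785 at p18. The stages did not overlap, and the fold was 3.32 (95% interval 2.20 to 4.99, log2 fold change 1.73 ± 0.28 SE, adjusted p = 2.7e-04). Cnn1 encodes calponin, which binds actin and slows the myosin ATPase, and was at 10.04, 32.8 and 29.1 at p6 and at 91.0, 100.8 and 101.6 at p18. Of the members it had the largest fold, 4.11 (2.57 to 6.58, adjusted p = 2.2e-04).

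Myh11, the smooth muscle myosin heavy chain, was at 219, 258 and 229 normalized CPM at p6 and at 554, 643 and 549 at p18. Mylk, the myosin light chain kinase that starts contraction, was at 127, 106 and 115 at p6 and at 229.8, 254 and 242 at p18. The stages did not overlap for either gene, their standard errors were the smallest among the members (0.17 and 0.14 on the log2 scale), and their folds were 2.51 (1.96 to 3.22, adjusted p = 3.9e-05) and 2.12 (1.72 to 2.61, adjusted p = 4.5e-05).

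The 2 remaining contractile genes rose with less certainty. Tagln, which encodes the actin-bundling protein transgelin, was at 47.1, 173 and 74.2 normalized CPM at p6 and at 211, 201 and 229 at p18, a fold of 2.21 (1.38 to 3.54, adjusted p = 0.013). Actg2, the enteric type of smooth muscle actin, was at 1.98, 24.4 and 5.11 at p6 and at 29.7, 29.1 and 36.1 at p18, a fold of 3.01 (1.38 to 6.57, adjusted p = 0.033). For both, groups did not overlap, but WT p6 replicate 2 came close to the p18 libraries. That library also had the highest fibroblast sum of the WT p6 libraries, and the part of fibroblasts in these values was not tested. The call of Actg2 was lost when any of the other 5 WT libraries was left out (adjusted p = 0.055 to 0.12), and that of Tagln when WT p6 replicate 3 was left out (adjusted p = 0.061).

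Oxtr, the receptor through which oxytocin makes the cells contract, was at 101, 234 and 147 normalized CPM at p6 and at 141, 178 and 160 at p18. The p18 libraries lay inside the range of the p6 libraries. Its log2 fold change was 0.01 ± 0.23 (95% interval -0.47 to 0.49, adjusted p = 0.98), an interval of 0.724 to 1.41 in fold, which leaves room for changes of that size in either direction. With scaling by totals it was -0.40 and not called.

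Of the basal genes, Krt5 was at 31.0, 84.4 and 63.2 normalized CPM at p6 and at 38.6, 28.5 and 33.1 at p18. The groups overlapped because of WT p6 replicate 1, and the log2 fold change was -0.81 ± 0.27 (adjusted p = 0.030). Krt14, its partner in the keratin filament, was at 25.1, 98.8 and 65.3 at p6 and at 46.8, 53.6 and 51.2 at p18, which gave -0.30 ± 0.32 (adjusted p = 0.51). Trp63 was at 25.3, 44.3 and 37.3 at p6 and at 26.0, 25.5 and 30.6 at p18, with -0.36 ± 0.20 (adjusted p = 0.18). WT p6 replicate 1 was the lowest p6 library for all 3 genes. Without it, 8 members were called, 5 higher and 3 lower, since Krt14 (-0.68, adjusted p = 0.023) and Trp63 (-0.55, adjusted p = 0.030) passed the threshold as well and Actg2 did not (adjusted p = 0.064). The call of Krt5 was lost without WT p6 replicate 2 or 3, or without WT p18 replicate 2 or 3 (adjusted p = 0.064 to 0.16).

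With 1 factor of unwanted variation in the model, 0 members and 117 of all genes were called, and 5 members had an unadjusted p under 0.05. The log2 fold changes were then 1.80 for Acta2, 2.25 for Actg2, 1.70 for Cnn1, 1.68 for Tagln, 0.75 for Myh11, 0.64 for Mylk and -0.99 for Krt5, so that calls were lost (adjusted p = 0.18 to 0.43) while some estimates were larger than without the factor. The factor was the main pattern over all genes except the 5000 with the smallest p between groups. Group differences were not removed first, so that it can hold stage itself. The lost calls therefore cannot separate stage from unwanted variation. In a fit of the 6 WT libraries alone, 4 members were called, namely Acta2, Myh11, Mylk and Cnn1. With the mean log2 level of the 16 skeletal muscle genes as a covariate 6 members were called, 5 higher and 1 lower, Actg2 being lost (adjusted p = 0.053). In bulk tissue, fewer cells of a type and less RNA per cell cannot be told apart.

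**Figure D2:**
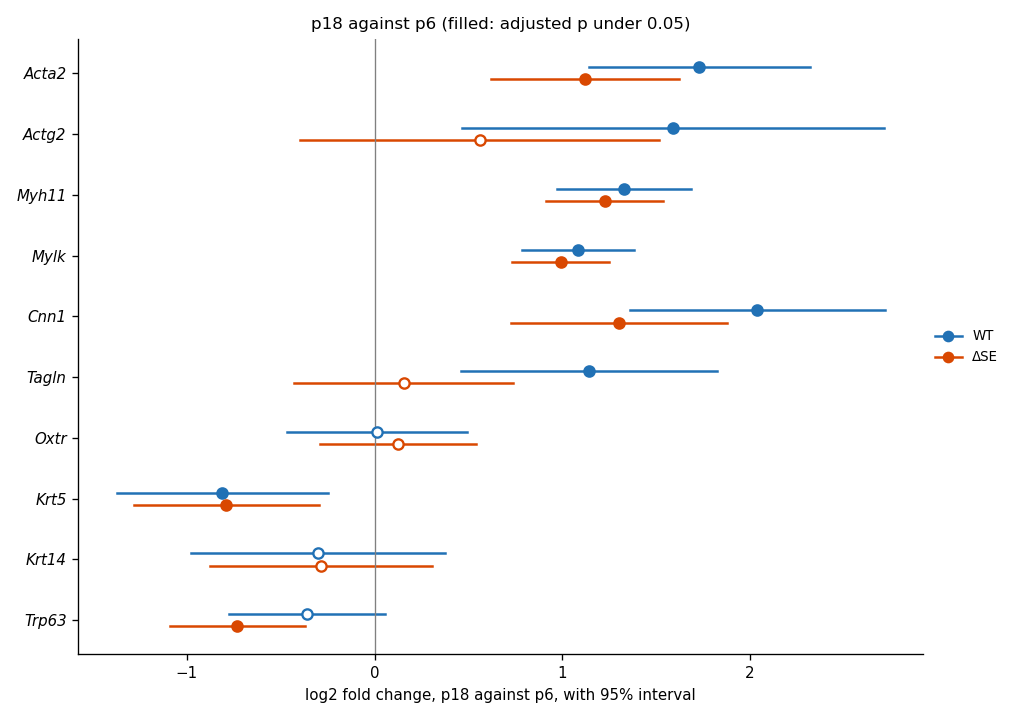
Log2 fold change from p6 to p18 (x axis) of each gene in WT and ΔSE tissue, with a 95% interval derived from edgeR's F statistic. Filled points had an adjusted p under 0.05. The contractile genes lie to the right of 0, Krt5, Krt14 and Trp63 to the left, and Oxtr at 0.01 in WT and 0.12 in ΔSE.

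The same question was put to ΔSE tissue, with 4 libraries at each stage. Acta2, Myh11, Mylk and Cnn1 rose, Krt5 and Trp63 fell, and Actg2, Tagln, Oxtr and Krt14 did not pass the test. Over all genes 17.3% rose and 18.3% fell, against 4 and 2 of the 10 members, and the median log2 fold change was 0.36 over the members and -0.07 over all genes. None of these libraries entered the WT comparison, though both comparisons used one estimate of the spread. Scaling by totals moved the median over all genes to -0.65 and the calls over all genes from 3083 higher and 3265 lower to 628 and 7969. Under that scaling 1 member (Myh11) was called higher and 3 lower, Krt14 being added. With Rn45s left out of the totals the split over all genes was 1062 higher and 6177 lower, and 4 members were called higher and 2 lower, as many as with TMM.

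Acta2 was at 416, 250.1, 284 and 315 normalized CPM in ΔSE at p6 and at 632, 663, 699 and 725 at p18. The stages did not overlap, and the fold was 2.17 (95% interval 1.54 to 3.08, adjusted p = 1.7e-03). Myh11 was at 341, 205, 256 and 229.6 at p6 and at 618, 599, 621 and 545 at p18, a fold of 2.34 (1.89 to 2.90, adjusted p = 1.4e-05). Mylk and Cnn1 also had no overlap between stages. Mylk went from 96.4 to 147 at p6 to 233 to 262 at p18, a fold of 1.99 (1.66 to 2.38, adjusted p = 1.8e-05), and Cnn1 from 21.1 to 44.1 to 72.4 to 84.2, a fold of 2.47 (1.66 to 3.68, adjusted p = 1.5e-03).

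Tagln and Actg2 overlapped between stages in ΔSE. Tagln was at 176, 122, 116 and 159 normalized CPM at p6 and at 137, 158, 154 and 183 at p18 (log2 fold change 0.16 ± 0.28, adjusted p = 0.70). Actg2 was at 27.7, 15.4, 12.6 and 17.0 at p6 and at 23.7, 24.7, 29.8 and 27.6 at p18 (0.56 ± 0.45, adjusted p = 0.36). In each gene ΔSE p6 replicate 1, which was the highest p6 library for all 6 contractile genes, lay within the p18 range. Oxtr was at 121 to 159 at p6 and at 119 to 168 at p18 (0.12 ± 0.20, adjusted p = 0.66).

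Krt5 was at 63.6, 47.0, 52.7 and 37.5 normalized CPM in ΔSE at p6 and at 32.3, 29.7, 26.8 and 26.0 at p18. All p18 libraries were below all p6 libraries (log2 fold change -0.79 ± 0.23, adjusted p = 0.014). Trp63 was at 54.6, 47.2, 50.7 and 40.6 at p6 and at 26.2, 22.5, 30.3 and 35.6 at p18, again without overlap (-0.73 ± 0.17, adjusted p = 3.3e-03). Krt14 did overlap, at 75.2, 44.6, 67.4 and 47.7 at p6 and 41.5, 53.5, 46.9 and 48.3 at p18 (-0.28 ± 0.28, adjusted p = 0.46). With 1 factor of unwanted variation in the model, 0 of the members and 0 of all genes were called in this comparison, and 0 members had an unadjusted p under 0.05. Estimates were then 1.22 for Acta2 and -1.05 for Krt5, no smaller than before, and 0.39 for Myh11, 0.34 for Mylk, 0.82 for Cnn1 and -0.26 for Trp63. As in WT, the factor can hold stage itself. With the mean log2 level of the skeletal muscle genes as a covariate 4 members were called higher and 2 lower. In a fit of the ΔSE libraries alone 7 members were called, 5 higher and 2 lower, Actg2 (0.56, adjusted p = 0.037) being added.

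Within a library, ratios of reads need no scaling between libraries. Acta2 gave 4.93, 3.50 and 3.07 reads per read of Krt14 in WT at p6 and 13.6, 14.3 and 15.3 at p18, and in ΔSE 4.21 to 6.61 at p6 and 12.4 to 15.2 at p18. Cnn1 gave 0.397 to 0.781 reads per read of Trp63 in WT at p6 and 3.32 to 3.95 at p18, and in ΔSE 0.447 to 0.890 and 2.36 to 3.57. Both ratios of a contractile to a basal gene were higher in every p18 library than in every p6 library. Oxtr gave 0.677 to 0.816 reads per Acta2 read in WT at p6 and 0.342 to 0.567 in ΔSE at p6, and 0.188 to 0.253 at p18 in the 2 genotypes together. The basal keratins Krt5 and Krt14 gave 0.1997, 0.434 and 0.432 reads per read of the luminal keratins Krt8 and Krt18 in WT at p6 and 0.220, 0.144 and 0.141 at p18, which overlap through 1 library of each stage. In ΔSE they gave 0.329 to 0.435 at p6 and 0.126 to 0.144 at p18. Acta2 gave 0.441 to 0.819 reads per read of these luminal keratins in WT at p6 and 1.31 to 1.64 at p18. In ΔSE it gave 0.898 to 1.61 at p6 and 1.10 to 1.23 at p18, so that the stages overlapped there.

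**Figure D3:**
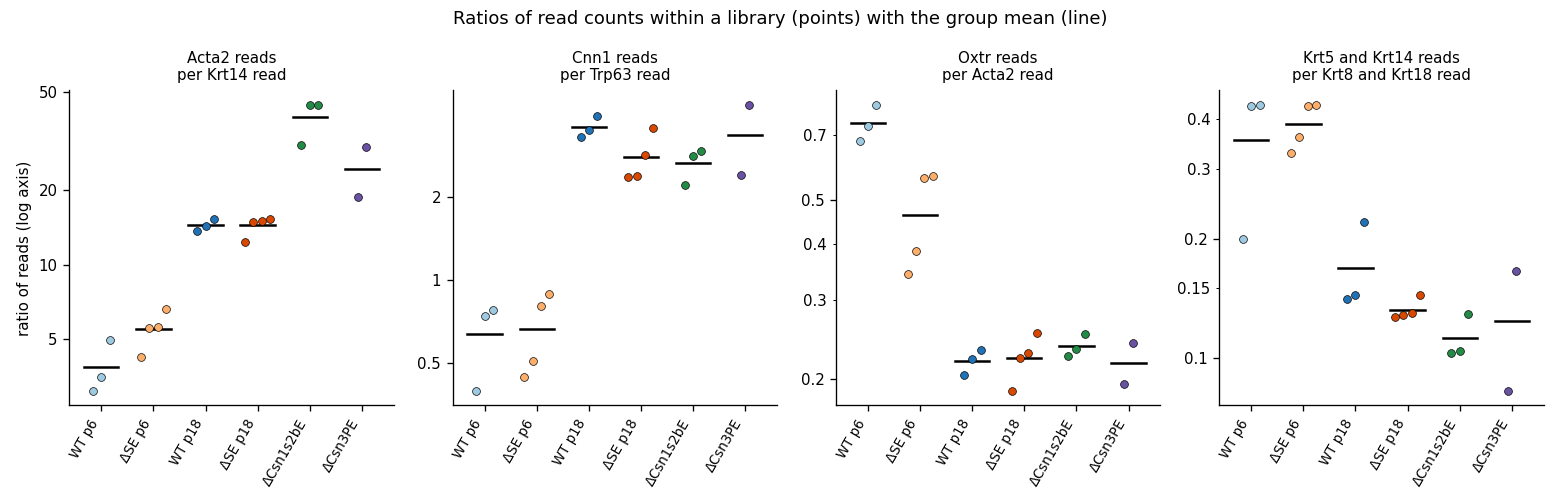
Ratios of reads within each library (log axes) by group, for Acta2 to Krt14, Cnn1 to Trp63, Oxtr to Acta2, and the basal keratins Krt5 and Krt14 to the luminal keratins Krt8 and Krt18. Points are libraries in order of their value and lines are group means. Acta2 reads per Krt14 read lie at 3.07 to 6.61 at p6 and at 12.4 to 44.3 in the libraries labelled p18.

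The effect of the super-enhancer deletion was examined at each stage. At p18, 0 of the 10 members differed between ΔSE and WT, and 0 had an unadjusted p under 0.05. Over all genes 0.101% were higher and 0.213% lower. DESeq2, which gave no adjusted p for Actg2 in any comparison of WT and ΔSE libraries, called 0 of the other members. The log2 fold changes lay between -0.43 (Tagln, 95% interval -1.06 to 0.20, adjusted p = 0.60) and 0.07 (Trp63, -0.32 to 0.47). Differences of Acta2 (-0.09, -0.63 to 0.44), Myh11 (0.04, -0.29 to 0.37) and Mylk (0.03, -0.25 to 0.30) were small, while the interval of Actg2 (-0.25, -1.26 to 0.77) was wide. Cnn1 (-0.32, -0.93 to 0.28, adjusted p = 0.71) and Tagln were lower in all 4 ΔSE libraries than in all 3 WT libraries without passing the test. The share of all genes separated in this way was not computed, so that no difference is read from it.

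At p6, 0 of the 10 members were called in ΔSE against WT, where 0.499% of all genes were higher and 0.527% lower. Trp63 had an unadjusted p under 0.05 (log2 fold change 0.45 ± 0.18, adjusted p = 0.23), with DESeq2 2 members did, of which 0 were called, and the groups overlapped for all 10 members. The contractile genes lay between 0.12 (Mylk) and 0.78 (Actg2), Acta2 at 0.51 ± 0.26 (adjusted p = 0.32). This comparison turned on WT p6 replicate 2. Without it, Acta2 (0.96, adjusted p = 0.012), Actg2 (2.30, adjusted p = 6.5e-04) and Tagln (1.24, adjusted p = 1.7e-03) were called higher in ΔSE. Beside these values, the fibroblast and myofibroblast sum was 12611 to 15846 normalized CPM in ΔSE at p6 and 1281, 11799 and 4870 in WT, in the order of replicates. Its part in the contractile levels was not tested.

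Whether the change from p6 to p18 differed between the genotypes was tested as an interaction, in which 0 members were called, 1 had an unadjusted p under 0.05, and over all genes 0.0897% were higher and 0.0616% lower. DESeq2 called 0 of the members other than Actg2 and gave 1 with an unadjusted p under 0.05. The estimates were below 0 for Tagln (-0.99 ± 0.42, the member with an unadjusted p under 0.05, adjusted p = 0.26), Actg2 (-1.03 ± 0.69, adjusted p = 0.48), Cnn1 (-0.74 ± 0.41, adjusted p = 0.38) and Acta2 (-0.61 ± 0.36, adjusted p = 0.41). They were -0.10 ± 0.22 for Myh11 and -0.09 ± 0.18 for Mylk. Without WT p6 replicate 2, Tagln (-1.64, adjusted p = 3.6e-03), Actg2 (-2.52, adjusted p = 3.4e-03) and Acta2 (-1.03, adjusted p = 0.046) were called. A call of Tagln or Actg2 in WT and not in ΔSE is therefore no difference shown between them with all libraries in the fit. The comparisons of stage, genotype and interaction share libraries.

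The single-enhancer lines were first compared with each other. Between ΔCsn1s2bE and ΔCsn3PE, 0 of the 10 members were called, as with DESeq2, and over all genes 0.0117% were higher and 0.169% lower in ΔCsn1s2bE. Krt14 alone had an unadjusted p under 0.05, by either tool, with 17.6, 18.6 and 28.2 normalized CPM in ΔCsn1s2bE and 46.4 and 25.5 in ΔCsn3PE (log2 fold change -0.74 ± 0.25, adjusted p = 0.68). The ranges overlapped through 1 library of each line. The contractile genes differed by -0.15 to 0.26.

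Against WT tissue at p18, 2 members were called in ΔCsn1s2bE, both lower, where 17.2% of all genes were higher and 15.0% lower. Krt14 was at 46.8, 53.6 and 51.2 normalized CPM in WT at p18, above all 3 ΔCsn1s2bE libraries (log2 fold change -1.296 ± 0.23, 2.46-fold lower, adjusted p = 2.5e-03). Tagln was at 140.3, 174 and 161 against 211, 201 and 229 in WT (-0.50 ± 0.13, adjusted p = 0.014), and its call was lost without ΔCsn1s2bE replicate 1 (adjusted p = 0.059), with a replicate block (adjusted p = 0.050) and with scaling by totals (-0.11, adjusted p = 0.61). Cnn1 (-0.28 ± 0.13, adjusted p = 0.11), Krt5 (-0.36 ± 0.22, adjusted p = 0.25) and Trp63 (0.15 ± 0.15, adjusted p = 0.48) did not pass the test. In ΔCsn3PE 0 members were called, 1 (Tagln, -0.34 ± 0.14) had an unadjusted p under 0.05 and with DESeq2 2 did, and over all genes 13.8% were higher and 11.5% lower. Krt14 was at -0.55 ± 0.26 (adjusted p = 0.14), and at -1.03 (adjusted p = 0.041) without ΔCsn3PE replicate 1. The lines have no WT libraries of their own, so that deletion, stage and set of libraries cannot be told apart. With scaling by totals, which moved the median over all genes to 0.40 in ΔCsn1s2bE and 0.42 in ΔCsn3PE and gave 5444 higher and 874 lower genes in place of 2950 and 2576, and 5103 and 627 in place of 2355 and 1968, 6 members were called in ΔCsn1s2bE (5 higher, 1 lower) and 1 higher in ΔCsn3PE. With Rn45s left out of the totals the direction was the opposite. The medians were then -0.14 and -0.13, with 1118 higher and 2350 lower genes in ΔCsn1s2bE and 609 and 1492 in ΔCsn3PE, and 3 members (Krt14, Tagln and Cnn1) were called lower in ΔCsn1s2bE and 0 in ΔCsn3PE.

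**Figure D4:**
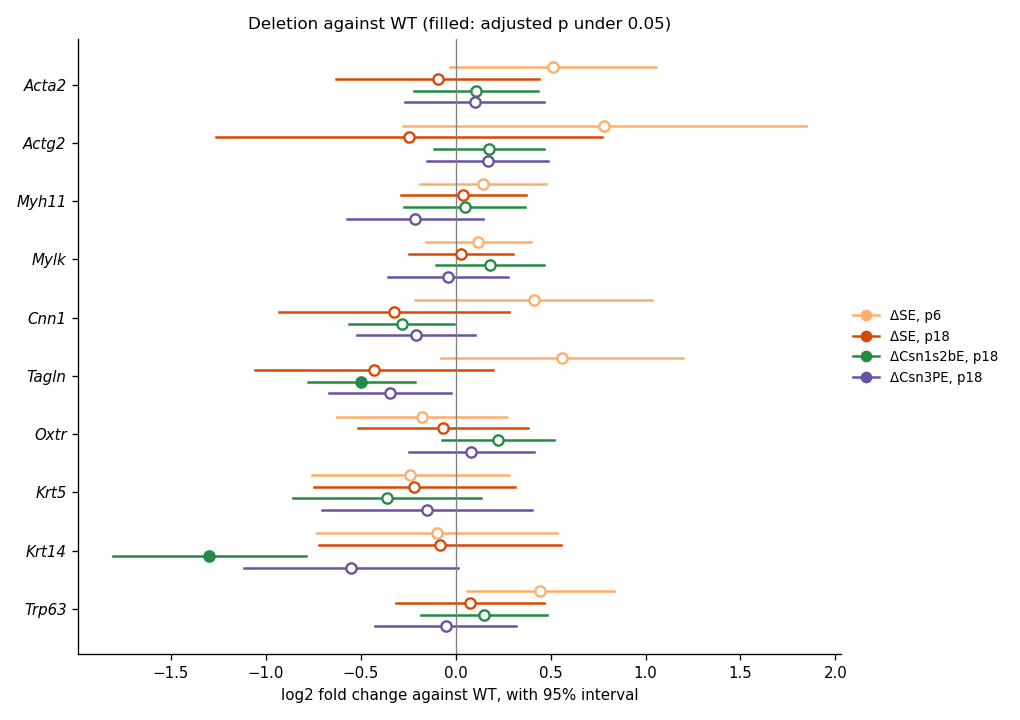
Log2 fold change against WT (x axis) with a 95% interval derived from edgeR's F statistic, for ΔSE at p6 and p18 and for the single-enhancer lines labelled p18. Filled points had an adjusted p under 0.05. They are Krt14 (-1.296) and Tagln (-0.50) in ΔCsn1s2bE, and the other intervals include 0 except those of Trp63 in ΔSE at p6, Cnn1 in ΔCsn1s2bE and Tagln in ΔCsn3PE.

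Across all 6 groups, the mean of Acta2 ran from 822 ± 40 normalized CPM (SD, n = 3) in ΔCsn1s2bE and 815 ± 78 (n = 2) in ΔCsn3PE over 730.2 ± 82 (n = 3) in WT and 679.9 ± 41 (n = 4) in ΔSE at p18 to 316 ± 72 (n = 4) in ΔSE and 223 ± 113 (n = 3) in WT at p6. Neighbours in this order overlapped in their ranges except at the step from p18 to p6. Myh11, Mylk and Cnn1 had the same single step without overlap. Oxtr ran from 195 ± 19 in ΔCsn1s2bE over 176 ± 9.1 in ΔCsn3PE, 161 ± 68 in WT p6, 159.6 ± 19 in WT p18 and 152 ± 23 in ΔSE p18 to 141 ± 15 in ΔSE p6. All neighbours in that order other than the first pair overlapped. Krt14 ran from 63.1 ± 37 in WT p6 over 58.7 ± 15 in ΔSE p6, 50.5 ± 3.5 in WT p18, 47.5 ± 4.9 in ΔSE p18 and 36.0 ± 15 in ΔCsn3PE to 21.5 ± 5.8 in ΔCsn1s2bE, with overlap between all neighbours.

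Other genes of the contraction pathway were followed from p6 to p18 in the same fit. For these and the lists below, the shares over all genes were 17.2% higher and 12.4% lower in WT. In ΔSE they were 17.3% and 18.3%. Of 16 other genes of the contractile machinery, 3 rose and 0 fell in WT (median log2 fold change 0.01) and 3 rose and 3 fell in ΔSE (median 0.03). The risers in WT were Myl9, the regulatory light chain that Mylk phosphorylates (1.597 ± 0.26, adjusted p = 3.4e-04), Csrp1, a LIM protein of the actin cytoskeleton (1.02 ± 0.19, adjusted p = 8.1e-04), and Myl6, the essential light chain (0.69 ± 0.19, adjusted p = 0.014). In ΔSE Myl9 was at 0.73 ± 0.23 (adjusted p = 0.019) and Csrp1 at 0.71 ± 0.16 (adjusted p = 3.1e-03), and Myl6 at -0.03 ± 0.17 did not pass the test. In the comparisons of ΔSE with WT and in the interaction 0 of the 16 were called. Against WT at p18, 0 were higher and 7 lower in ΔCsn1s2bE, and 0 and 6 in ΔCsn3PE. Over all genes 17.2% were higher and 15.0% lower in the first, and 13.8% and 11.5% in the second. Myl9 was lower in both lines (-0.50 ± 0.12, adjusted p = 8.9e-03, and -0.52 ± 0.13, adjusted p = 0.019). Deletion, stage and set of libraries cannot be told apart there.

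Of 17 genes that carry the signal from receptor to contraction, 7 rose and 4 fell in WT and 2 rose and 4 fell in ΔSE. The shares over all genes were 17.2% and 12.4% in WT and 17.3% and 18.3% in ΔSE. Orai1, the calcium channel of the plasma membrane that refills stores, rose by 2.78 ± 0.28 on the log2 scale in WT (adjusted p = 6.7e-06) and by 1.87 ± 0.25 in ΔSE (adjusted p = 3.6e-05). Stim1, the sensor that opens it, had a log2 fold change of -0.99 ± 0.17 in WT (adjusted p = 3.8e-04) and -0.97 ± 0.15 in ΔSE (adjusted p = 1.1e-04). Plcb1, a phospholipase C downstream of the receptor, was at -1.01 ± 0.18 (adjusted p = 5.2e-04) and -0.92 ± 0.15 (adjusted p = 2.7e-04). Several of these genes are expressed in luminal cells as well. Against WT at p18, 6 of the 17 were higher and 2 lower in ΔCsn1s2bE, and 3 and 3 in ΔCsn3PE. The shares over all genes were 17.2% and 15.0% in the first line and 13.8% and 11.5% in the second. Deletion, stage and set of libraries cannot be told apart in these comparisons.

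Of 9 regulators of contractile genes, 0 rose and 4 fell in WT, and 1 rose and 1 fell in ΔSE. Their median log2 fold change in WT was -0.40. Jag1, a Notch ligand, fell in both genotypes (-0.98 ± 0.13, adjusted p = 5.6e-05, and -0.81 ± 0.11, adjusted p = 5.9e-05). Tead1 (-0.78 ± 0.20, adjusted p = 6.9e-03) and Myocd, the smooth muscle coactivator of serum response factor (-2.04 ± 0.59, adjusted p = 0.016), fell in WT and were at -0.37 ± 0.17 (adjusted p = 0.10) and -0.95 ± 0.52 (adjusted p = 0.17) in ΔSE. Myocd was scarce, at 0.573 to 1.90 normalized CPM in WT at p6 and 0.130 to 0.479 at p18.

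Of 20 other genes of the basal epithelium, 4 rose and 3 fell in WT and 3 rose and 4 fell in ΔSE. Over all genes 17.2% rose and 12.4% fell in WT, and 17.3% and 18.3% in ΔSE. Itga6, the integrin that anchors basal cells to laminin, rose by 1.305 ± 0.15 on the log2 scale in WT and 1.45 ± 0.13 in ΔSE (adjusted p = 1.8e-05 and 1.4e-06), and Lamb3, a laminin chain of the basement membrane, by 1.19 ± 0.23 and 0.78 ± 0.20 (adjusted p = 1.1e-03 and 6.1e-03). Lama5, another laminin chain, was at -0.78 ± 0.18 and -0.43 ± 0.16 (adjusted p = 4.3e-03 and 0.042).

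Markers of the other cells that could hold these transcripts were followed beside them. Of 12 genes of vascular smooth muscle and pericytes, 3 rose and 4 fell in WT and 1 rose and 5 fell in ΔSE. Their summed level was 328 to 385 normalized CPM in WT at p6 and 327 to 379.8 at p18, and 461 to 501 and 353 to 367 in ΔSE, whereas the 6 contractile members summed to 529 to 939.7 and 1752 to 1997 in WT and to 709.6 to 1151 and 1718 to 1838 in ΔSE. The vascular sum therefore overlapped between stages in WT and was lower at p18 in ΔSE, while the contractile sum was higher at p18 in both. Among the vascular genes Rgs5, a pericyte marker, rose in WT (0.84 ± 0.17, adjusted p = 1.4e-03) and was at -0.07 ± 0.14 in ΔSE (adjusted p = 0.76), and Cspg4 and Ednra fell in both genotypes. At p6, 2 of the 12 were higher in ΔSE than in WT, Rgs5 among them (0.99 ± 0.16, adjusted p = 0.018).

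Other tissue components moved with stage too. Of 10 fibroblast and myofibroblast genes 0 were called in WT and 9 fell in ΔSE, with sums of 5735 to 7496 normalized CPM in WT at p18 and 3890 to 7455 in ΔSE at p18. Of 10 adipocyte genes 3 fell in WT and 7 in ΔSE. Of 10 luminal genes 3 rose and 1 fell in WT and 9 rose and 1 fell in ΔSE, the sums being 675 to 1367 at p6 and 1858 to 2575 at p18 in both genotypes together. Of 16 skeletal muscle genes 0 were called in WT and 16 fell in ΔSE. Of 6 epidermal genes tested 2 rose in each genotype. The 9 epidermal genes measured summed to 9.09 to 72.7 normalized CPM over all groups, and Krt1 and Lor, which mark the upper layers of skin, were at or near 0 (at most 0.188 and 0.201). Apart from the fits with a skeletal muscle covariate given above, the part of these components in the members' changes was not tested.

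**Figure D5:**
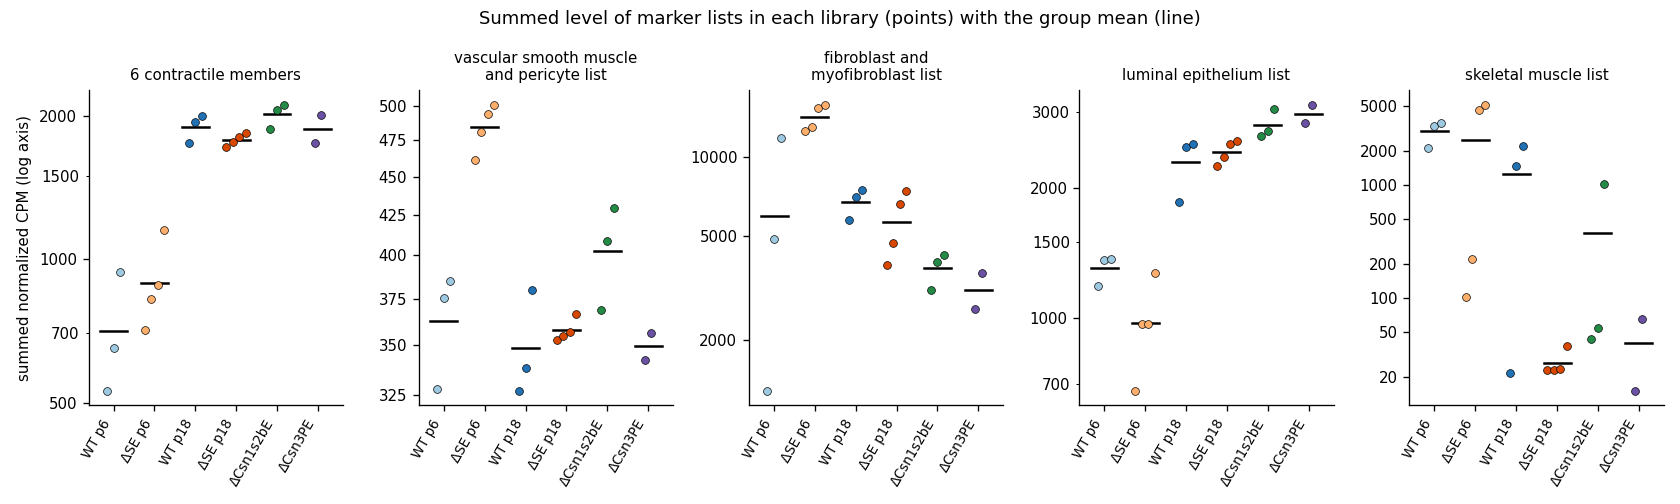
Summed normalized CPM (log axes) of the 6 contractile members and of 4 marker lists in each library, by group. Points are libraries in order of their value and lines are group means. The contractile sum is 529 to 1151 at p6 and 1718 to 2112 in the libraries labelled p18, and the vascular sum 328 to 501 and 327 to 429.6.

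Likeness of pattern was measured as Pearson's r of log2(normalized CPM + 0.5) over the 14 WT and ΔSE libraries, among the 10636 genes whose mean reached 5 normalized CPM. Libraries fall into p6 and p18, which any gene that changes with stage shares, so that r is a description. The mean profile of the 6 contractile members was most like that of Myl9 (r = 0.985), Csrp1 (0.973), Aaed1 (0.972), Slc25a5 (0.970) and Ppib (0.968). Oxtr was most like Rps6ka6 (0.824), Itfg3 (0.818), Cdh3 (0.810), Fam207a (0.780) and Col17a1 (0.778). Among the genes most like the mean of Krt5, Krt14 and Trp63 were Fbln1 (0.905), Rnf219 (0.897), Wif1 (0.896) and Cotl1 (0.889). Cdh3 and Col17a1 are on the list of basal genes, and Myl9 and Csrp1 on that of the contractile machinery.

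Among the contractile members, over the same 14 libraries, r was highest between Myh11 and Mylk (0.978), Acta2 and Cnn1 (0.977) and Actg2 and Tagln (0.972). The other pairs of contractile members ran from 0.548 (Mylk and Tagln) to 0.925 (Acta2 and Myh11). Among the WT p6 libraries Actg2 and Tagln were highest in replicate 2, as were all other members except Mylk. Oxtr had r = 0.777 with Krt14 and 0.119 with Mylk. Krt5 had r = 0.716 with Krt14, 0.715 with Trp63 and -0.749 with Mylk.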

How the data were processed

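Total RNA was sequenced from mouse mammary tissue in 19 libraries, 1 file each, with a kit that removes ribosomal RNA and keeps strand. The deposited values are counts of reads per gene, which the authors made by trimming with Trimmomatic, alignment of paired-end reads to mm10 with STAR and counting with HTSeq, with no normalization. The files of the single-enhancer lines also held summary entries that name no gene, of which reads in no gene (13.2 to 20.9% of a file) were the largest, and these were left out. RUVSeq and DESeq2, which the authors ran later, are not in the counts.

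Counts were tested with edgeR (version 4.0.16, glmQLFit and glmQLFTest, TMM factors) in R (version 4.3.3) with a minimum of 10 reads per gene over all libraries, with Benjamini-Hochberg adjustment over all genes and an adjusted p under 0.05 as the threshold. The 14 WT and ΔSE libraries formed a model of 4 groups (17844 genes), and 8 libraries labelled p18 a model of 3 groups (17125 genes). Normalized CPM used TMM factors over all 19 libraries. Exon lengths and overlaps are from GENCODE, promoters from RefSeq (GRCm38.p6). No 2 libraries of the same group agreed within sampling noise (chi-square per gene at least 7.93), and pairs across groups were not compared. Alternatives were DESeq2 (version 1.42.0), scaling by totals with and without Rn45s, other filters, fits of the groups compared only, a replicate block, 1 factor of unwanted variation, a skeletal muscle covariate and each library left out. Leaving out 4 muscle-rich libraries was added after the data were examined. Fits were tested on simulated data.

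The 10 members and all lists were chosen with earlier results of these data known, so that no count is independent support. Named genes are the members, up to 3 genes of each list with the smallest p in WT p18 against p6, and the 5 genes most like each profile, of which 1 is not reported here. The lists cover contractile machinery, contraction signalling, regulators of contractile genes, other basal genes, vascular smooth muscle and pericytes, skeletal muscle, epidermis, luminal epithelium, fibroblasts and adipocytes.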

Additional observations from a re-analysis of the deposited data

How the results depend on the processing

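Actg2 had the lowest count, 25 reads in 1 library, and the widest 95% interval of the members in the interaction, -2.49 to 0.43 on the log2 scale. Of the alternatives for the 10 members, 1178 values kept direction and side of the threshold, 42 lost the call, 19 gained it, 96 changed sign without a call and 0 changed sign with one. Against 7 members called between WT stages, 4 were called with only the groups compared, 0 with 1 factor of unwanted variation and 4 without the 4 muscle-rich libraries. That last fit left 1 WT p18 library, low in muscle RNA and assumed to vary like the other groups, against WT p6 libraries that are all rich in it, so that it says nothing on muscle in WT. Against 6 in ΔSE, 7 were called with only the groups compared and 0 with 1 factor of unwanted variation. That factor can hold stage itself, in WT as in ΔSE. In the fit without the 4 muscle-rich libraries, ΔSE p6 was left with replicates 1 and 3. The log2 fold change of Acta2 between ΔSE stages was then 0.96 in place of 1.12, and its call was lost. Against 2 in ΔCsn1s2bE compared with WT, 6 were called with scaling by totals, and against 0 in ΔCsn3PE 1 was, while 3 and 0 were called with Rn45s left out of the totals. Other causes were not tested.

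With each library left out in turn, the members called ranged from 4 to 8 between WT stages, 5 to 6 between ΔSE stages, 0 to 3 for ΔSE against WT at p6, 0 to 3 for the interaction, 1 to 2 for ΔCsn1s2bE and 0 to 1 for ΔCsn3PE against WT, and stayed at 0 for ΔSE against WT at p18 and for ΔCsn1s2bE against ΔCsn3PE. The 4 between WT stages came without WT p6 replicate 3, the 8 without WT p6 replicate 1, both values of 3 without WT p6 replicate 2, and the 1 in ΔCsn3PE without its replicate 1. The call of Krt5 between ΔSE stages was lost without ΔSE p6 replicate 1 (adjusted p = 0.059).

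The labels do not say whether the same replicate number marks a pairing. Deviations of same-numbered libraries from their group means correlated at -0.70 to 0.46 over 41 pairs of libraries, 15 of them over 0.1. Pairs with different numbers were not compared, so that these values do not decide on a pairing. With the number as a replicate block, 7 members were called between WT stages, 6 between ΔSE stages, and 1 in place of 2 (Krt14) in ΔCsn1s2bE against WT, and no other count of members changed. Over all genes, calls under the alternatives ranged from 117 to 6322 between WT stages (5279 in the main analysis), 0 to 8597 between ΔSE stages (6348), 6 to 824 for ΔSE against WT at p18 (56), 0 to 1767 at p6 (183), 0 to 1036 for the interaction (27), 9 to 99 between the single-enhancer lines (31), 3468 to 6318 for ΔCsn1s2bE (5526) and 1327 to 5730 for ΔCsn3PE (4323) against WT. DESeq2 gave no adjusted p for Actg2 in the 5 comparisons of WT and ΔSE libraries.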
